A study of Mus musculus with 12 samples.

Results

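Wnt signalling turns on target genes, some of which switch it down again. Described here are 10 targets that encode feedback regulators of the pathway or proteins of the cell surface: Fzd7, Axin2, Nkd1, Apcdd1, Znrf3, Rnf43, Bambi, Ephb2, Cd44 and Tnfrsf19. They were taken by symbol as textbook Wnt targets and are 10 of the 52535 genes listed in every count file. Poly(A) RNA was sequenced from T-ALL cells (T-cell acute lymphoblastic leukaemia or lymphoma) of 3 mice, kept in culture as lines 240, 242 and 352. The group labelled control (given placebo, per the study's legends) and the group given PKF118-310, an inhibitor of the contact between β-catenin and Tcf, hold 1 library of each line and so 3 libraries each. Control and treated cells alike carry the double transgenic genotype Akt2;Dlx5, in which the Lck promoter drives a myristoylated, active Akt2 kinase and the homeobox gene Dlx5 in T cells, and no library without the transgenes was analysed here. For dose and time the labels refer to the study, and they are not given here. Whether a line is 1 clone is not given in the sources used here, and each line stands for 1 mouse.

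In canonical Wnt signalling, a ligand bound to a Frizzled receptor and an Lrp coreceptor stops a destruction complex from degrading β-catenin, which then joins Tcf and Lef proteins on DNA and turns on target genes. Some targets close a loop: Axin2 rebuilds the destruction complex, Nkd1 binds Dishevelled, Znrf3 and Rnf43 remove Frizzled from the membrane, and Apcdd1 binds ligand and coreceptor outside the cell. In the thymus the pathway is known for its part in the growth and maturation of early thymocytes, in which Tcf7 and Lef1 are the main nuclear partners of β-catenin.

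Depth and quality differed between libraries. The labels call the paired files of a library lanes and were followed, whereas a legend of the study describes separately kept cultures for each line and group. If the legend holds, each library here is a sum over cultures. Counts summed over the 2 lanes of a library ran from 604984 in the treated cells of line 242 to 13766638 in those of line 352, and the other 4 libraries held 3160824 to 13221186. Levels are counts-per-million (CPM) of the TMM-scaled library, and a floor of 3 counts, up to which a gene with none could lie, was worth 5.57 CPM in treated line 242 and 0.210 to 0.957 CPM elsewhere. Of 14 T cell markers, all 14 had counts in the other 5 libraries and 13 in treated line 242, where Ptcra was at 0. Their summed level was 4788 to 6483 CPM in controls and 3318, 3746 and 6822 CPM in treated lines 242, 352 and 240. Treated line 242 stood apart in other ways. Mitochondrial genes took 11.8% of its counts against 1.84% to 3.10% elsewhere, and genes without a count in any control took 3.59% against 0.150% and 0.0522% in treated lines 240 and 352. The summed level of 8 fibroblast and stroma markers was 1136 CPM there, against 51.6 to 94.7 CPM in controls and 62.8 and 69.8 CPM in treated lines 240 and 352. Of those 612 counts 581 were of Vim and 14 of Col1a1, while Pdgfra, Col3a1, Lum, Col1a2 and Dcn had 5, 4, 4, 3 and 1 counts and Pdgfrb none. Epithelial markers (7 genes) summed to 37.1 CPM there, with 11 counts of Epcam, 5 of Cdh1, 4 of Foxn1 and none of Krt5, Krt8, Krt14 and Krt18, and to 0.248 to 17.0 CPM elsewhere, myeloid markers (6 genes) to 59.4 against 11.7 to 47.8 CPM, and endothelial markers (4 genes) to 55.7 against 44.9 to 70.8 CPM. Pax5, a factor of the B lineage named after its values were seen, had 43 counts there and 0 in its control, against 7 and 16 counts in treated lines 240 and 352 and 1 and 0 in their controls. The part of these differences in any result of line 242 was not tested. These are bulk libraries, in which fewer cells of a type and less RNA per cell cannot be told apart.

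For Axin2, the usual readout of the pathway, for Nkd1 and Ephb2, on which results by line or treatment turn, and for the member with a match to the Tcf/Lef core, the promoter windows of RefSeq (GRCm38.p6, 250 bases before and 50 from the start site on, 5′ to 3′ on the gene's strand) are printed to show the sequence next to the start of transcription. Windows of 7 of the 10 members are reported here, 9 windows in all. No window of the other 3, Znrf3, Bambi and Apcdd1, was searched, so nothing is said here of their promoters. The letters CTTTGA, the core that Tcf and Lef proteins bind, were searched on both strands, and a match is in capitals. The Axin2 window is chr11:108920099-108920398 (+), the Nkd1 window chr8:88527383-88527682 (+), the Ephb2 window chr4:136835963-136836262 (-) and the Tnfrsf19 window, at the inner of its RefSeq starts, chr14:61037938-61038237 (-).
Axin2: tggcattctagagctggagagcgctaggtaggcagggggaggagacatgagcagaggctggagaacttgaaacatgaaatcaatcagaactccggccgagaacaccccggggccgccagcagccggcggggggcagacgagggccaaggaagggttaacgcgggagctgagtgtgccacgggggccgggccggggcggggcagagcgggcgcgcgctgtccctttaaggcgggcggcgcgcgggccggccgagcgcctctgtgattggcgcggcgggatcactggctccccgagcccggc
Nkd1: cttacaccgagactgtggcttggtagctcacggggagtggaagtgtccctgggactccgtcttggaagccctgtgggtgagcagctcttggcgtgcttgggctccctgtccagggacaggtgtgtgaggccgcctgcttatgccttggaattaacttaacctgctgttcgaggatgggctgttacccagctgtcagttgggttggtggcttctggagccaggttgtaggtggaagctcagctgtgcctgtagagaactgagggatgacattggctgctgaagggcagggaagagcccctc
Ephb2: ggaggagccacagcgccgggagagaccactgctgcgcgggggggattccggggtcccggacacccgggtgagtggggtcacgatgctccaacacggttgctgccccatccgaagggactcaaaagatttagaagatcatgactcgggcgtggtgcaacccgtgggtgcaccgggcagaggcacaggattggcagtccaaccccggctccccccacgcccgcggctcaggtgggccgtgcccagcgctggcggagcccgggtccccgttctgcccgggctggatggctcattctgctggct
Tnfrsf19: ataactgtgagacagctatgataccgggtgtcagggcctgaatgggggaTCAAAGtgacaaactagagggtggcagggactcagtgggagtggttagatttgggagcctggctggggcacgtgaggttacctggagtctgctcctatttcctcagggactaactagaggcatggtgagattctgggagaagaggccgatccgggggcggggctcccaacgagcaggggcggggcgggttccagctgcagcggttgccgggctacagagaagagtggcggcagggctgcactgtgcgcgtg
Of the 9 windows, 1 held the core, which lies 201 bases before the start in the Tnfrsf19 window on the opposite strand, so that it is printed as TCAAAG, and it is also a match to CTTTGAT, a longer form that contains CTTTGA. Of all 32817 windows in the table, 16% held CTTTGA and 3.73% CTTTGAT. No match says only that these letters are not in these windows. The RefSeq start of Nkd1 lies 6279 bases inside the gene as the files place it, so that its window may belong to a shorter transcript.

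The first question was which members the T-ALL cells express. Control cells of all 3 lines expressed 7 of the 10 members at 1 CPM or more and over 3 counts: Axin2, Fzd7, Apcdd1, Znrf3, Bambi, Ephb2 and Cd44. Over all 52535 genes of the files the same rule was met by 18.9%. The other 3 members were each missing in at least 1 line, Nkd1 in line 240, Rnf43 in lines 242 and 352 and Tnfrsf19 in lines 240 and 352. By line, 8, 9 and 8 members were expressed in lines 240, 242 and 352. The highest control level was in line 242 for 5 members (Axin2, Fzd7, Znrf3, Apcdd1 and Tnfrsf19), in line 240 for 3 (Ephb2, Rnf43 and Cd44) and in line 352 for 2 (Nkd1 and Bambi). Line 240 had the lowest control level of Axin2, Nkd1, Znrf3 and Apcdd1 and the highest of Rnf43.

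Levels of different genes were compared per kilobase (kb) of merged exon. Cd44 was the highest of the members in controls with 24.4 ± 9.87 CPM per kb (SD, n = 3 lines), followed by Ephb2 (13.6 ± 9.0), Znrf3 (11.1 ± 4.88), Nkd1 (7.46 ± 8.68), Axin2 (6.68 ± 4.04), Apcdd1 (4.07 ± 4.78) and Bambi (3.04 ± 0.219). Fzd7 (0.927 ± 0.768), Tnfrsf19 (0.597 ± 1.04) and Rnf43 (0.127 ± 0.109) lay below 1 CPM per kb on average. Between neighbours in this order the ranges over the 3 lines overlapped, except between Bambi, at 2.79 CPM per kb or more, and Fzd7, at 1.80 CPM per kb or less. Bambi varied least between lines relative to its mean, and Nkd1 ran from 0 to 17.0 CPM per kb.

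**Figure D1:**
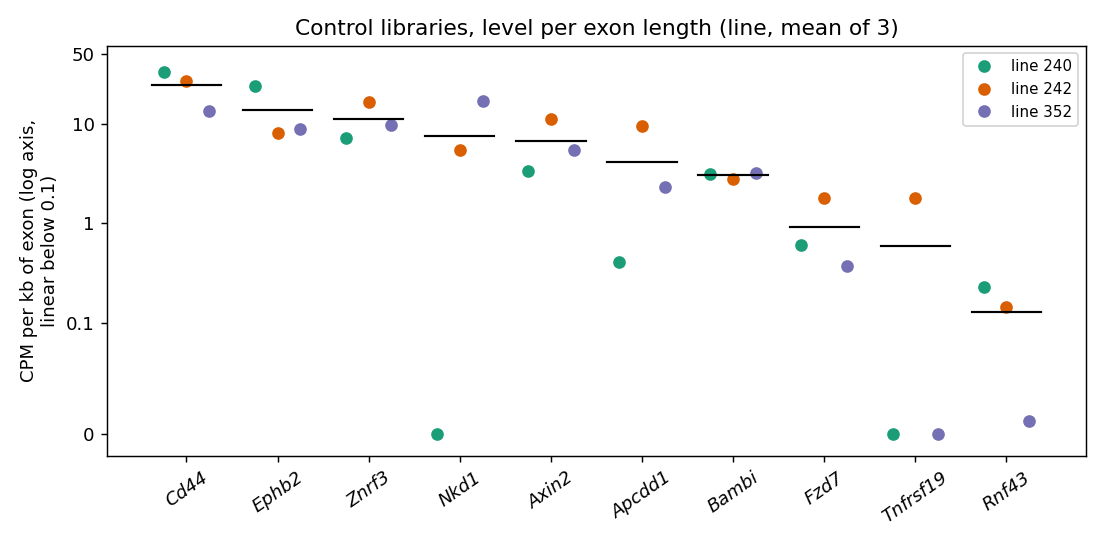
Level of each member in the control library of lines 240, 242 and 352, in CPM per kb of exon on an axis that is logarithmic above 0.1 and linear below it, with a black bar at the mean of the 3 lines. Bambi has nearly the same level in all lines, while Nkd1 is at 0 in line 240 and at 17.0 CPM per kb in line 352.

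The lines were also compared in a model with the treatment as a second term, where the pair of libraries of a line stands in for replicates. Apcdd1 and Nkd1 differed between lines (edgeR quasi-likelihood adjusted p = 0.0192 and 0.0427). These are 2 of the 8 members tested, where 5.32% of the 10331 genes tested passed. Rnf43 and Tnfrsf19 were too low to be tested. The other 6 tested members had adjusted p from 0.0858 for Axin2 to 0.639 for Bambi. In lines 240 and 352 alone, 6 of 9 members tested differed, where 44.7% of 11760 genes did: Nkd1 (adjusted p = 1.33e-09), Ephb2 (1.40e-06), Cd44 (2.28e-06), Apcdd1 (2.58e-06), Rnf43 (0.0205) and Znrf3 (0.0393). Nkd1 had 0 counts in both libraries of line 240, and Rnf43 had 1 and 7 counts in line 352. Each was kept for testing only through the line where it is high, so these calls follow in part from the filter. DESeq2 on these lines also called Ephb2, Cd44 and Apcdd1. It did not call Nkd1 (adjusted p = 0.145) or Znrf3 (0.337), and gave no adjusted p for Rnf43. Without line 240, 4 of 9 did (Nkd1, Apcdd1, Cd44 and Tnfrsf19), where 7.29% of 11859 genes did, and without line 352, 2 of 9 (Nkd1 and Apcdd1), where 2.05% of 10207 did. Tnfrsf19 was kept without line 240 through line 242 only (27 and 2 counts, against 0 and 1 in line 352). Nkd1 was kept without line 352 through line 242 only (78 and 3 counts, against 0 and 0 in line 240). Nkd1 and Apcdd1 thus passed in each of these edgeR fits, though Nkd1 has no counts in line 240.

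The comparison at the centre of the design asks how the members move with PKF118-310. In the fit of all 3 lines none of the 8 tested members passed the threshold, in a comparison in which 0% of 10331 genes did. In this edgeR quasi-likelihood fit no member reached an unadjusted p below 0.05, which 570 genes reached. DESeq2 called 45 genes, none of them a member. By limma voom with sample weights, Nkd1, Bambi, Fzd7 and Ephb2 had an unadjusted p below 0.05. None of them passed there (adjusted p = 0.0560, 0.0670, 0.0966 and 0.107), while 801 genes did. The median log2 fold change was -0.08 over the 8 members and 0.01 over all genes tested. Only Bambi was higher in the treated library of every line, and none of the 8 was lower in every line. The members thus lay on both sides of their controls.

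With lines 240 and 352 alone, Ephb2 was lower after PKF118-310. It was 1 of 2 members past the threshold among 9 tested, in a fit in which 5.01% of 11760 genes were called higher and 5.92% lower (edgeR quasi-likelihood test, adjusted p below 0.05, n = 2 lines, 1 residual degree of freedom). With so few degrees of freedom, its p leans on the spread of other genes. The other was Nkd1, higher, but it had no counts in line 240, so its value compares 1 control with 1 treated library of line 352 and is no test across lines. DESeq2 called neither, and without the line as a block edgeR called neither member and 0 genes in all. The median over the 9 members was 0.10 on the log2 scale, against -0.01 over all genes tested.

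Within a line, each treated library can be set against its own control with an interval that covers counting error only, since a line has 1 library per group. In line 240 that interval lay below 1 for 2 of the 8 tested members (Ephb2 and Fzd7) and above 1 for 0, where 17.2% and 18.2% of all tested genes did so. In line 242 it lay below 1 for Nkd1 and Znrf3 and above 1 for Ephb2 and Cd44, with 20.1% and 22.3% of all genes. In line 352 it lay below 1 for 4 members (Axin2, Ephb2, Fzd7 and Cd44) and above 1 for 3 (Nkd1, Bambi and Apcdd1), with 31.2% and 29.6% of all genes. The lanes of line 352 differed by more than sampling noise (chi-square per degree of freedom of 2.01 and 2.05), so its intervals are too narrow. Past 2-fold in either direction were 2 members in each line, against 6.63%, 28.6% and 5.40% of all tested genes in lines 240, 242 and 352. They were Fzd7 and Apcdd1 in line 240, Cd44 and Nkd1 in line 242, and Ephb2 and Fzd7 in line 352. Some rest on few counts: Fzd7 went from 11 to 1 and from 23 to 4 counts in lines 240 and 352. Apcdd1 went from 21 to 8 counts in line 240, with an interval that held 1, and Nkd1 from 78 to 3 in line 242. Apart from Bambi, no tested member moved the same way in all 3 lines, as the plot of ratios within each line shows.

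**Figure D2:**
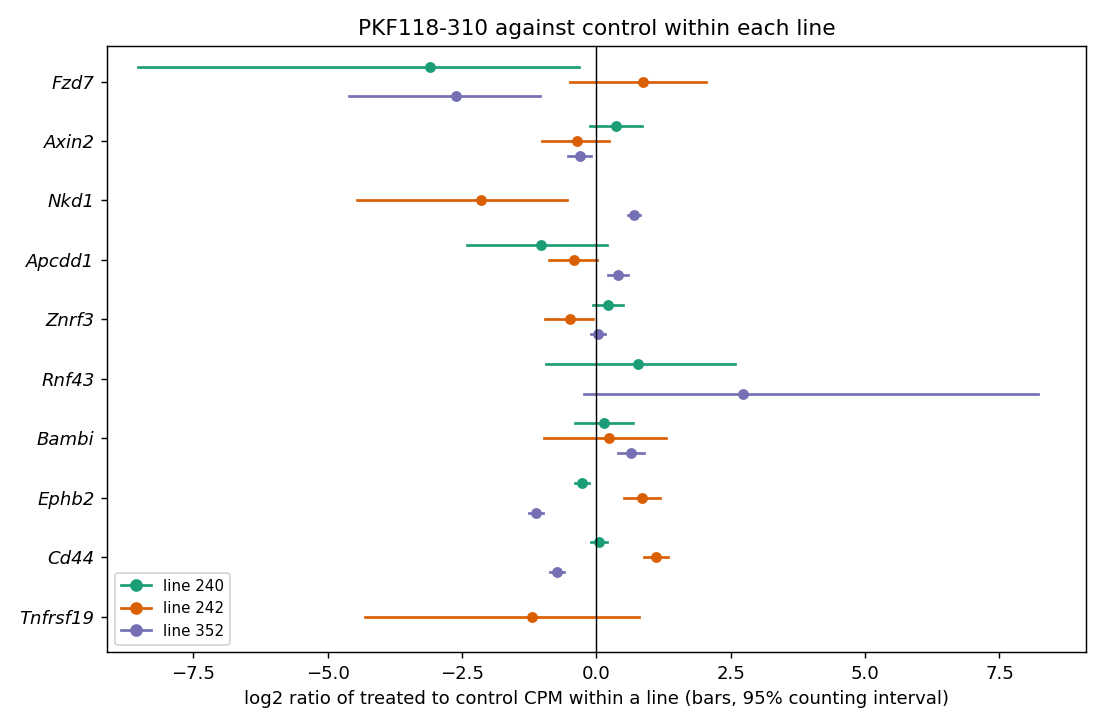
Log2 ratio of treated to control CPM for each member in lines 240, 242 and 352, with bars for the 95% counting interval and no point where either library has 0 counts. Ephb2 and Cd44 lie above 0 in line 242 and below 0 in line 352, Nkd1 does the reverse, and Bambi lies above 0 in every line, with an interval clear of 0 in line 352.

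Fzd7 (chromosome 1, 59482424 to 59486955, plus strand) encodes a Frizzled receptor and so acts at the top of the pathway. Its controls held 2.73, 8.18 and 1.70 CPM in lines 240, 242 and 352 (11, 26 and 23 counts), and the treated libraries 0.319, 14.9 and 0.279 CPM (1, 8 and 4 counts). It was a rare transcript in every library, and the treated cells of lines 240 and 352 held fewer counts than their controls. The ratio of treated to control was 0.117 in line 240 (95% counting interval 0.00272 to 0.804), 0.165 in line 352 (0.0414 to 0.482) and 1.82 in line 242 (0.711 to 4.13). The log2 fold change was -1.30 ± 0.99 over 3 lines (SE, adjusted p = 0.845) and -2.69 ± 0.81 over lines 240 and 352, where it did not pass (adjusted p = 0.0516).

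Axin2 (chromosome 11, 108920349 to 108950783, plus strand) encodes a scaffold of the destruction complex and is a widely used readout of β-catenin activity. In controls it stood at 18.6, 61.6 and 30.1 CPM in lines 240, 242 and 352 (75, 196 and 408 counts). In treated cells it stood at 23.9, 48.3 and 24.3 CPM (75, 26 and 348 counts). The treated level was above the control in line 240 and below it in lines 242 and 352, and the groups overlapped. Only in line 352 did the interval of the ratio leave out 1, at 0.807 (0.698 to 0.934). It was 1.29 (0.921 to 1.80) for line 240 and 0.783 (0.499 to 1.18) for line 242. Over the 3 lines the log2 fold change was -0.10 ± 0.22 (adjusted p = 0.963), and without line 242 it was -0.07 ± 0.19 (adjusted p = 0.859). Line 242 had the highest Axin2 in both groups, yet the lines did not differ at the threshold (adjusted p = 0.0858).

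Nkd1 (chromosome 8, 88521354 to 88594884, plus strand), whose product binds Dishevelled and dampens the signal, was at 0 counts in both libraries of line 240. Its controls in lines 242 and 352 held 24.5 and 77.5 CPM (78 and 1050 counts), and the treated libraries 5.57 and 126 CPM (3 and 1808 counts). The gene was thus undetected in line 240, where 3 counts would be 0.744 and 0.957 CPM, and highest in both libraries of line 352. Its control level was at least 104-fold higher in line 352 and at least 33.0-fold higher in line 242 than in line 240, taking 3 counts as the limit there. The contrast of line 352 with line 240 passed (adjusted p = 0.0329, where 4.38% of genes passed), and that of line 242 with line 240 did not (adjusted p = 0.161, where 0.397% passed).

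Treated cells held more Nkd1 than controls in line 352, with a ratio of 1.63 (1.51 to 1.76), and less in line 242, with a ratio of 0.227 (0.0458 to 0.688) that rests on 3 treated counts where 13.2 would match the control level. Over the 3 lines the fold change was 0.02 ± 0.63 on the log2 scale (adjusted p = 0.999). Over lines 240 and 352 edgeR gave 0.70 with an adjusted p of 0.0187 and DESeq2 0.54 with 0.987, but as only line 352 has counts, neither holds a spread between lines for this gene and the change was not tested there.

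Znrf3 (chromosome 11, 5276324 to 5444847, minus strand) and Rnf43 (chromosome 11, 87662722 to 87735539, plus strand) encode membrane ubiquitin ligases that take Frizzled receptors off the cell surface. Znrf3 stood at 56.6, 131 and 75.6 CPM in the controls of lines 240, 242 and 352 (228, 416 and 1025 counts) and at 65.4, 92.8 and 77.2 CPM in the treated cells (205, 50 and 1105 counts). It was present in every library, and the groups overlapped. The ratio was 0.709 (0.518 to 0.953) in line 242, while the intervals of line 240 (1.16, 0.953 to 1.40) and line 352 (1.02, 0.937 to 1.11) held 1. The log2 fold change was -0.07 ± 0.19 over 3 lines (adjusted p = 0.977) and 0.10 ± 0.12 without line 242 (adjusted p = 0.661).

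Rnf43 held 6, 3 and 1 counts in the controls of lines 240, 242 and 352 and 8, 0 and 7 counts in the treated cells, or 1.49, 0.943 and 0.0738 CPM against 2.55, 0 and 0.489 CPM. Of the paired ligase genes, Znrf3 was therefore the abundant transcript in all 3 lines, at 11.1 against 0.127 CPM per kb in controls. No ratio of Rnf43 had an interval that left out 1, and its log2 fold change over lines 240 and 352 was 1.33 ± 0.91 (adjusted p = 0.394).

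Apcdd1 (chromosome 18, 62922327 to 62953195, plus strand) encodes a membrane protein that binds Wnt ligand and Lrp coreceptors and inhibits signalling. Its controls held 5.21, 122 and 30.0 CPM in lines 240, 242 and 352 (21, 388 and 406 counts), and the treated cells 2.55, 90.9 and 39.7 CPM (8, 49 and 568 counts). The order of the lines was the same in both groups and their levels did not overlap. Line 242 exceeded line 240 by a log2 difference of 4.76 ± 0.41 (SE, adjusted p = 0.0338, where 0.397% of genes passed) and line 352 exceeded line 240 by 3.15 ± 0.40 (adjusted p = 0.0276, where 4.38% passed). Line 352 against line 242 gave -1.61 ± 0.33 and did not pass (adjusted p = 0.0560, where 7.24% of genes did).

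After PKF118-310 Apcdd1 had a ratio to control of 0.490 (0.188 to 1.15) for line 240, of 0.745 (0.542 to 1.005) for line 242 and of 1.32 (1.16 to 1.51) for line 352. The interval of line 242 lay just below 1 (0.509 to 0.944) when libraries were scaled by their totals. Its log2 fold change was -0.16 ± 0.29 over 3 lines (adjusted p = 0.952) and 0.21 ± 0.24 without line 242 (adjusted p = 0.645).

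Bambi (chromosome 18, 3507957 to 3516404, plus strand) encodes a decoy receptor of the TGF-beta family without a kinase domain. It stood at 15.9, 14.2 and 16.2 CPM in the controls of lines 240, 242 and 352 (64, 45 and 220 counts) and at 17.5, 16.7 and 25.4 CPM in treated cells (55, 9 and 364 counts). Every treated level lay above every control level, as did 3.29% of all 10331 genes tested. The ratio was 1.57 (1.32 to 1.86) in line 352, while the intervals of line 240 (1.10, 0.756 to 1.61) and line 242 (1.18, 0.507 to 2.44) held 1. The log2 fold change was 0.37 ± 0.26 over 3 lines (adjusted p = 0.843) and 0.46 ± 0.20 without line 242 (adjusted p = 0.175).

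Ephb2 (chromosome 4, 136647539 to 136835988, minus strand) encodes a receptor tyrosine kinase for B-class ephrins. Its controls held 303, 102 and 111 CPM in lines 240, 242 and 352 (1220, 325 and 1499 counts), and the treated cells 252, 184 and 50.6 CPM (790, 99 and 725 counts). It was below its control in lines 240 and 352 and above it in line 242. Line 240 had a ratio of 0.833 (0.760 to 0.911), line 352 of 0.458 (0.418 to 0.501) and line 242 of 1.80 (1.42 to 2.26). Over lines 240 and 352 Ephb2 fell by 0.70 ± 0.16 on the log2 scale (edgeR quasi-likelihood adjusted p = 0.0160), or 0.71 by DESeq2, where it did not pass (adjusted p = 0.110). Over all 3 lines the fold change was -0.23 ± 0.39 (adjusted p = 0.943). The line terms did not pass for Ephb2 over 3 lines (adjusted p = 0.136) and passed in lines 240 and 352 alone (adjusted p = 1.40e-06).

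Cd44 (chromosome 2, 102811141 to 102901665, minus strand) encodes a hyaluronan receptor that marks early thymocytes and activated T cells, and the counts are per gene, so that its splice forms cannot be told apart. It stood at 222, 182 and 91.3 CPM in the controls of lines 240, 242 and 352 (894, 579 and 1238 counts) and at 230, 394 and 55.2 CPM in treated cells (720, 212 and 790 counts). The treated level was near the control in line 240, above it in line 242 and below it in line 352. The ratio was 1.04 (0.937 to 1.14), 2.16 (1.84 to 2.53) and 0.604 (0.552 to 0.661) in that order. The log2 fold change was 0.13 ± 0.37 over 3 lines (adjusted p = 0.977) and -0.35 ± 0.15 without line 242 (adjusted p = 0.167).

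Tnfrsf19 (chromosome 14, 60963875 to 61046490, minus strand), also called Troy, encodes a receptor of the tumour necrosis factor family that marks some stem cells. It had 27 counts (8.49 CPM) in the control of line 242 and 2 counts (3.71 CPM) in its treated cells, 0 counts in both libraries of line 240 and in the control of line 352, and 1 count (0.0698 CPM) in treated line 352. It was a transcript of line 242, whose control level was at least 11.4-fold higher than that of line 240 and at least 38.4-fold higher than that of line 352. The ratio in line 242 was 0.437 (0.0504 to 1.74), so that no change was detectable at this depth.

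**Figure D3:**
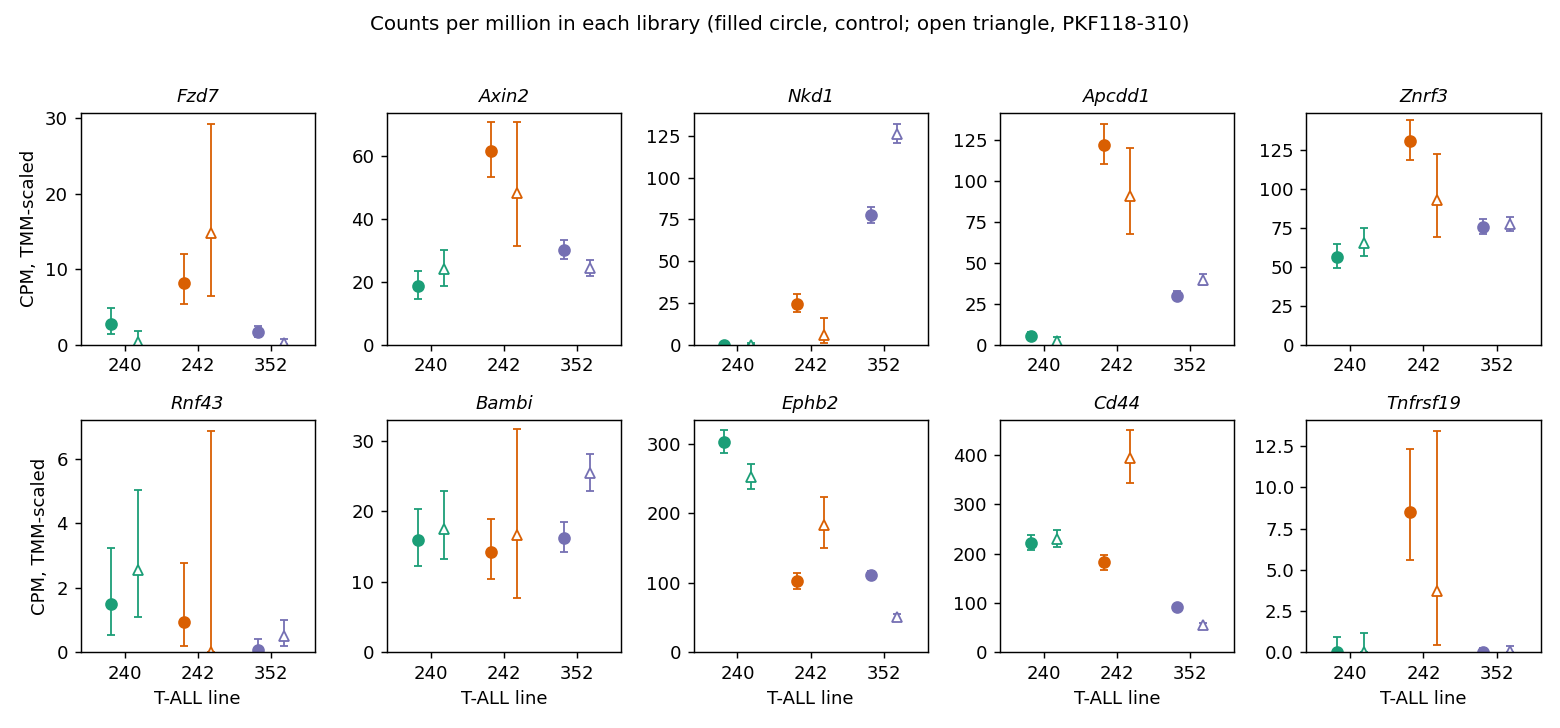
TMM-scaled CPM of each member in each library, with a filled circle for the control and an open triangle for PKF118-310 of lines 240, 242 and 352 and bars for the exact 95% Poisson interval, which covers counting error only. The axes start at 0 and differ between panels, and the wide bars of treated line 242 follow from its 604984 counts.

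The rest of the pathway was read from lists given in full by symbol. In the fit of 3 lines no gene of these lists passed the treatment test, and in lines 240 and 352 alone 4 of 51 tested did, where 10.9% of all genes passed. Of 20 other Wnt targets 9 were tested there. Jun rose (1.19 ± 0.34, adjusted p = 0.0439), from 0 and 196 counts in the controls to 10 and 415 counts in the treated cells of lines 240 and 352. Ppard fell by 0.63 ± 0.14 (adjusted p = 0.0127), from 56.3 and 46.2 to 36.4 and 30.2 CPM. In line 242 Ppard was instead higher in treated cells, at 57.5 against 17.0 CPM (31 and 54 counts). Its log2 fold change over 3 lines was -0.01 (edgeR quasi-likelihood adjusted p = 0.999). Tcf7, the main Tcf factor of thymocytes, had -0.46 ± 0.14 and did not pass (adjusted p = 0.0526), with 1808 and 1165 CPM in controls and 1509 and 742 CPM in treated cells. Lef1, its partner and itself a target, had 0.22 ± 0.11 (adjusted p = 0.257). Birc5, which encodes survivin, had -0.30 ± 0.11 (adjusted p = 0.109).

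Of 9 Frizzled genes other than Fzd7, Fzd5 was expressed in all 3 controls, at 59.5, 44.3 and 90.3 CPM in lines 240, 242 and 352. Fzd10 held 34.5 and 21.4 CPM in lines 240 and 242 and 0 counts in line 352, a difference between lines that passed (adjusted p = 0.0263). Fzd2 and Fzd4 held 8.34 and 11.3 CPM in the control of line 352 and 0 counts in the other two controls. The coreceptor genes Lrp5 (85.8, 63.2 and 112 CPM) and Lrp6 (149, 178 and 156 CPM) were present in all. None of the 7 receptor and coreceptor genes tested in lines 240 and 352 passed the treatment test, nor did the 5 tested in all 3 lines.

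**Figure D4:**
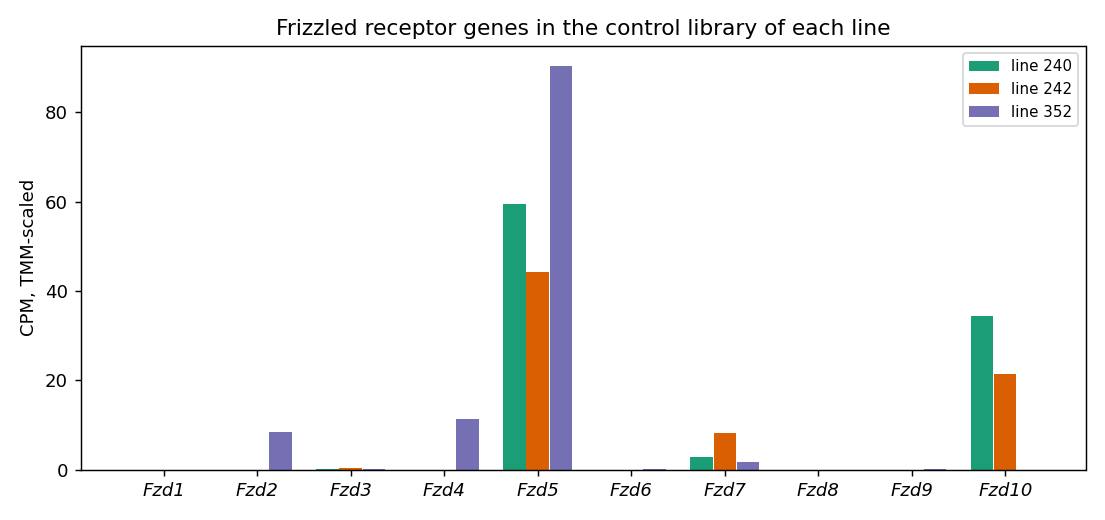
TMM-scaled CPM of the 10 Frizzled genes in the control library of lines 240, 242 and 352. Fzd5 is the tallest bar in every line, Fzd10 is seen in lines 240 and 242, Fzd2 and Fzd4 in line 352, and Fzd7 is low in all of them.

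Of the ligand and release genes, Wls, which carries Wnt proteins to the membrane, stood at 86.8, 114 and 197 CPM in controls, and Wnt5b at 3.23, 6.29 and 24.6 CPM. No R-spondin or Lgr gene reached 1 CPM and over 3 counts in the control of line 240, while 1 of the 7 did so in each of lines 242 and 352. R-spondins and Lgr receptors are known to shield Frizzled from Znrf3 and Rnf43. Of 19 genes for β-catenin, its nuclear partners and the destruction complex, 15 were expressed in all 3 controls, among them Ctnnb1 (536, 707 and 559 CPM) and Axin1 (95.3, 131 and 102 CPM), and 0 of 16 passed the treatment test in lines 240 and 352. The genes of this list with the smallest p over 3 lines were those for the kinase Gsk3a and the Dishevelled proteins Dvl2 and Dvl1, with log2 fold changes of -0.55 ± 0.23, -0.42 ± 0.20 and 0.26 ± 0.17, none of which passed (smallest adjusted p = 0.842).

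For the relatives of the surface members, Epha2 was the gene called among 4 Eph and ephrin genes tested in lines 240 and 352 (adjusted p = 0.00452), with 1 count in each control and 17 and 41 counts in treated cells, so that it passed the filter on low counts through the treated libraries only. Efnb3 and Ephb6 had 0.39 ± 0.31 and -0.39 ± 0.16 and did not pass (adjusted p = 0.473 and 0.134). In the receptor family that Bambi resembles, Tgfbr1 fell by 0.68 ± 0.15 (adjusted p = 0.0143), from 240 and 202 CPM to 200 and 98.3 CPM, while Tgfbr2 (0.21 ± 0.18, adjusted p = 0.512) and Bmpr2 (0.01 ± 0.23, adjusted p = 0.982) did not pass. Bmpr1a differed between the 3 lines (adjusted p = 0.0122), with 1.24, 120 and 61.1 CPM in controls. None of the 3 Cd44 partners tested, Ezr, Rdx and Msn, passed the treatment test.

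The genes whose levels ran most like those of Axin2 over the 6 libraries were Lamp2, Edem1, Zfp275, Plcb2 and Slc25a25, with Pearson's r of 0.981, 0.975, 0.974, 0.974 and 0.974 on log2 CPM. For Nkd1 they were Oaf, Cbr1, Dennd2a, Med15 and Fam32a, with r of 0.993, 0.992, 0.991, 0.990 and 0.989. The 6 libraries come from 3 lines and include treated line 242, so these values describe the likeness and were not tested.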

How the data were processed

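Per the labels, poly(A) RNA was extracted from cultured T-ALL cells and made into stranded libraries. The authors deposited raw read counts per gene, 1 file for each of 2 lanes of a library. HISAT2, HTSeq, edgeR and mm10 stand in the submitters' processing notes and TopHat in the study's methods. For versions, annotation and the strand setting of the counting, nothing was given in the sources used here. Genes overlapping a member held at most 2 counts in any library.

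Lane counts were summed (chi-square per degree of freedom of 0.98 to 1.02 between lanes in lines 240 and 242). The summed counts were tested with edgeR 4.0.16 (R 4.3.3): filterByExpr (10331 genes, 99.0% of counts), TMM scaling, the quasi-likelihood F test with line as a block, and Benjamini-Hochberg adjusted p below 0.05 over all genes. SE was derived from the fold change and F. Each line is 1 mouse, so control and treated libraries were paired by line, and they deviated together from the group means (correlations 0.673, 0.303 and 0.789). Treatment and line p-values come from the same fit and use the same residual spread. It is how far the treated-to-control ratios differ between 3 lines, or 2 where line 242 is left out. That leaves 2 residual degrees of freedom, or 1 without line 242. The quasi-likelihood test draws the spread of each gene toward a trend over all genes, so the p-values rest in part on other genes. Level intervals are exact 95% Poisson and ratio intervals exact 95% binomial. These and the floor of 3 counts cover counting error only, since molecules were not tagged. Exon lengths came from GENCODE vM21.

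The members and gene lists were chosen with earlier results of these data known. All 10 members are named, with the up to 3 tested genes of smallest p per list, the 5 genes most like Axin2 and Nkd1, and genes named after their values were seen (Ppard, Lef1, Pax5, Bmpr1a, Axin1, Ctnnb1 and the other Frizzled genes). Alternatives were DESeq2 1.42.0, limma voom 3.58.1, other scalings, filters, lanes and lines, and no block. Scripts were tested on simulated data. The result of 1 marker list is not reported here.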

Additional observations from a re-analysis of the deposited data

Results flagged for a closer look

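In 3 members the log2 ratios of treated to control CPM (prior count of 2) lay on opposite sides of 0 in different lines, each beyond its counting interval. With 1 library per line and group these differences between lines were not tested, and all of them involve treated line 242, the smallest library. For Nkd1 the ratio of line 352 exceeded that of line 242 by 2.65. For Ephb2 the ratio of line 242 exceeded that of line 240 by 1.10 and that of line 352 by 1.97. For Cd44 the ratio of line 242 exceeded that of line 352 by 1.83.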

How the results depend on the processing

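The count of members past the treatment threshold in 3 lines was 0 under every alternative that kept all lines. That of all genes was 45 by DESeq2, 85 by edgeR's likelihood ratio test, 801 by limma voom with sample weights and 312 without a filter, and 0 without the line as a block, under both other scalings, in each lane alone and with at least 1 CPM and 10 counts in every library. Leaving out 1 line gave 3 to 1285 genes and 0 to 2 members, with 1285 and 2 without line 242 (1 of them Nkd1, with counts in line 352 alone), 7 and 0 without line 240 and 3 and 0 without line 352. In lines 240 and 352, alternatives chosen after seeing the data gave 265 genes and 0 members by DESeq2, 0 and 0 without the line as a block, and 1017 and 2 by library totals. For differences between lines, DESeq2 gave 1665 genes and 6 members, the likelihood ratio test 2883 and 7, voom 4376 and 7, no filter 3009 and 7, the strict filter 216 and 0, lane 1 alone 847 and 3. Leaving out 1 line gave 209 (line 352), 865 (line 240) or 5257 genes (line 242) and 2, 4 or 6 members. Nkd1, Rnf43 and Tnfrsf19 enter these counts of members in fits that kept them through 1 line only. Of the 6 without line 242, DESeq2 also called Ephb2, Cd44 and Apcdd1 and did not call Nkd1, Znrf3 and Rnf43. The number of members expressed in all 3 lines was 6 or 7 throughout.

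Of 98 alternative values of the members' treatment fold changes 13 turned in sign. On the log2 scale, Nkd1 had -0.35 by DESeq2, -0.36 by the likelihood ratio test and -0.054 without a filter, and -2.03 to 0.70 with 1 line left out. Voom turned Znrf3 (0.066), Apcdd1 (0.29) and Cd44 (-0.25), and lane 2 alone turned Znrf3 (0.023). With 1 line left out, Ephb2 ran from -0.70 to 0.25, Znrf3 from -0.25 to 0.10, Apcdd1 from -0.66 to 0.21 and Cd44 from -0.35 to 0.55. The cause was not tested. None of 82 alternative values of the ratios within a line (prior counts of 0.5 and 5, library totals) left its counting interval. Depth limits treated line 242, where 3 counts are 5.57 CPM, above the control level of Rnf43 there.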
